A study of Mus musculus with 9 samples.

Results

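The stefin A cluster of mouse chromosome 16 was followed in messenger RNA from ear dermis. Its members were taken as the 7 rows of the deposited count table whose symbols were Stfa1, Stfa2, Stfa2l1, Stfa3, BC100530, Gm5483 and BC117090, out of 52550 genes in the table. The cluster was selected on measured values, namely the higher Stfa2l1 level with imiquimod than with vaseline, so for the members the comparison of those 2 groups is given as a description with no test. Wild-type C57BL/6 mice aged 8 weeks formed 3 groups of 3 libraries. VAS+H2O mice had vaseline on the ear for 5 days and ddH2O by gavage for 10 days. IMQ+H2O mice, the psoriasis-like model, had imiquimod (IMQ) cream for 5 days in place of vaseline and the same ddH2O gavage. IMQ+XYF mice had IMQ cream and, over the same 10 days, 200 μl of the herbal decoction Xiao-Yin-Fang (XYF), labelled as 23.3 mg/g. The RNA was stated to come from ear sheets of more than 1 mouse, and nothing in the sources used here says whether libraries of a group came from separate mice, so the p-values measure only the spread between these libraries.

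Stefin A proteins are small inhibitors of papain-like cysteine proteases such as cathepsins B, H, L and S. They belong to the cystatin superfamily, stay inside the cell because they lack a signal peptide, and bind in the active-site cleft of the protease without being cut. In skin, stefin A is a component of the cornified envelope of keratinocytes, and transcripts of mouse stefin A genes are also known from neutrophils. The mouse cluster arose by repeated duplication, and its genes are close paralogs whose separate roles are not settled.

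In the GRCm38 annotation (GENCODE vM21) the cluster spanned chromosome 16 from base 36119946 to base 36455392, a stretch of 335447 bases with 10 protein-coding genes and 8 pseudogenes. Stfa2l1 lay at 36156811 to 36161953, Gm5483 at 36184212 to 36188111 and Stfa1 at 36276951 to 36285373, all 3 on the plus strand. On the minus strand lay BC117090 at 36321665 to 36334332, BC100530 at 36359382 to 36367748, Stfa2 at 36403992 to 36408457 and Stfa3 at 36450537 to 36455392. BC100530 was overlapped on the other strand by Gm15845, which lay between 0 and 0.523 CPM in the 9 libraries, where CPM is the count scaled to library size by edgeR's TMM factors. RefSeq lists Gm5483 as Cstdc4, BC100530 as Cstdc5 and BC117090 as Cstdc6.

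Coding sequences are shown first because they decide how far reads can be told apart. The members' coding sequences ran from 291 bases in BC117090 to 387 in Stfa1, and over the 21 member pairs the identity of aligned positions had a median of 78.5% and ran from 59.4% to 96.5%. Stfa2l1 and Stfa2 were the closest member pair at 96.5%, followed by BC117090 and BC100530 at 95.9%. Gm5483 was 96.9% identical to 2010005H15Rik, a stefin A gene that is not a member. The longest run that Stfa2l1 shared with Stfa2, coding bases 93 to 189 of Stfa2l1, and the longest that BC100530 shared with Stfa1, coding bases 169 to 268 of BC100530, were read from the GENCODE transcripts.
Stfa2l1 and Stfa2: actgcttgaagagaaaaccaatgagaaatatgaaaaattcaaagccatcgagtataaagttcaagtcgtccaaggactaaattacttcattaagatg
BC100530 and Stfa1: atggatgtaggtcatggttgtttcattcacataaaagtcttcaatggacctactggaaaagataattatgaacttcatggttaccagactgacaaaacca
A read that lay wholly inside either stretch could not be assigned to 1 gene. The longest coding run was 138 bases between BC100530 and BC117090, but only 34 bases between Stfa2l1 and Gm5483, 23 between Stfa2l1 and BC100530, and 23 between Stfa3 and BC100530.

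**Figure D1:**
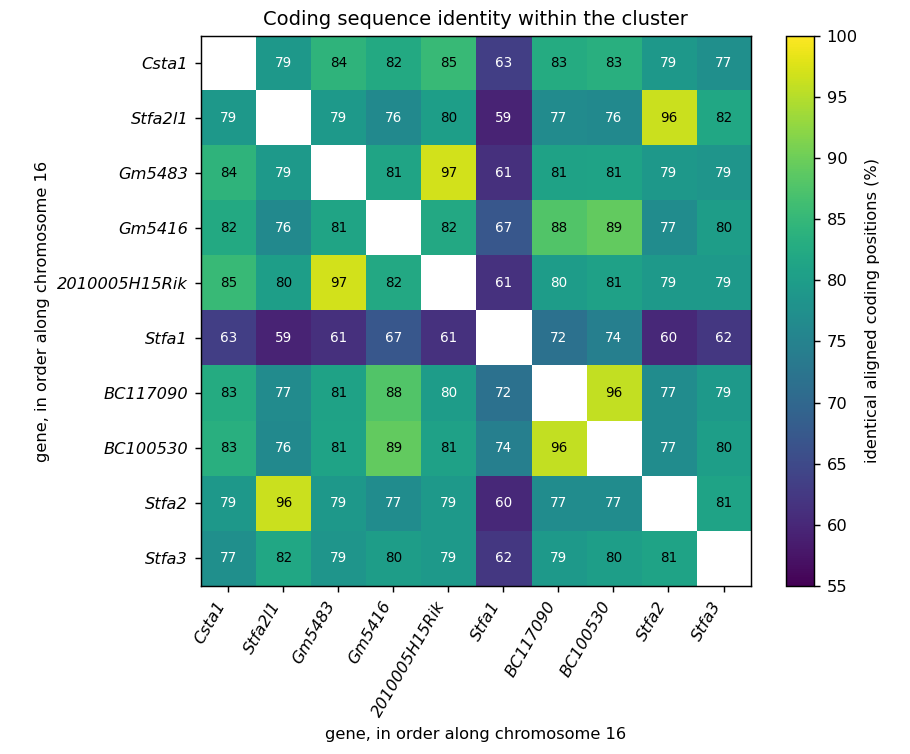
Identity of aligned coding positions (%, colour and number) between the 10 protein-coding stefin A genes of the cluster, in their order along chromosome 16. The pairs Stfa2l1 with Stfa2, BC117090 with BC100530, and Gm5483 with 2010005H15Rik stand out at 96.5%, 95.9% and 96.9%.

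Whole exon sequences were compared as well. Of all 50-base words in Stfa2l1, 16.8% also occurred in Stfa2, and no 100-base word did. The 50-base shares found in any other stefin A gene of the cluster were 14.7% for Stfa2, 22.5% for Stfa1, 25.1% for BC100530, 33.7% for BC117090 and 7.10% for Gm5483, whose longest coding run shared with 2010005H15Rik was 134 bases. Stfa3 shared no 50-base word with any annotated transcript. How the authors' counting treated reads with several alignments was not given in the sources used here, so the values of Stfa1, BC100530 and BC117090, those of Stfa2l1 and Stfa2, and those of Gm5483 and 2010005H15Rik are uncertain where reads could be split between them. Counted against all annotated transcripts, the 50-base shares were 24.6% for Stfa2l1, 36.2% for BC100530, 15.9% for Stfa2 and 14.2% for Gm5483. For Gm5483, 770 genes outside the cluster were among those that held its words. Of 100-base words, 13.5% in BC117090, 9.49% in BC100530, 5.07% in Stfa1 and 1.88% in Gm5483 occurred in another stefin A gene of the cluster. Against all annotated transcripts the 100-base share of BC100530 was 15.6%.

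RefSeq promoter sequences (GRCm38.p6) were matched for 6 members, and BC117090 had no entry. The longest word found in the 250 bases before the start of all 6 was ACCTTTAAAACC, which also lay before Gm5416, Cstdc3 and Gm7260 of the same cluster. It is shown in capitals in the 100 bases before the start of 3 members, 2 that were without counts in VAS+H2O and 1 that was not.
Stfa2l1, chr16:36156711-36156810, plus strand: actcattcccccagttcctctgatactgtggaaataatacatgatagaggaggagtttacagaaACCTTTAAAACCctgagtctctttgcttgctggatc
Gm5483, chr16:36184112-36184211, plus strand: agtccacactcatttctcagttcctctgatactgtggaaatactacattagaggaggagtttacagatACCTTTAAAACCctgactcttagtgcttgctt
Stfa3, chr16:36455393-36455492, minus strand: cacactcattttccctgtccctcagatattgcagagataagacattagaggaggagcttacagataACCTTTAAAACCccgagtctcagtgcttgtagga
For BC100530, Stfa1 and Stfa2 the RefSeq start lies inside the GENCODE gene, and only 30 bases around the word are given.
BC100530, chr16:36367571-36367600, minus strand: gaggaggagtttacagatACCTTTAAAACC
Stfa1, chr16:36277106-36277135, plus strand: ctttcggatACCTTTAAAACCctgagtctc
Stfa2, chr16:36408375-36408404, minus strand: cttacagaaACCTTTAAAACCctgagtctc
The word began between 12 and 36 bases before the RefSeq start of the members. On either strand it was held by 11 of 32851 promoter windows of the same length (0.0335%), of which 9 were in this cluster. It was chosen as the word common to the members, so its presence in them is a description.

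Known motifs were searched in the same 250 bases on both strands, by their letters. GAGGAA, the core of sites bound by PU.1 and other ETS factors, was in 6 of 6 member promoters and in 23.3% of all. AGATAA, read by factors of the GATA family, was in those of Stfa1, BC100530 and Stfa3, against 9.99% of all. The C/EBP motif TTGCNNAA was in those of Stfa1 and BC100530, against 9.56%. The STAT motif TTCNNNGAA was in that of Gm5483, against 7.02%. TGANTCA (AP-1, 6.75% of all), an NF-kB motif (1.21%) and TATAAA (the TATA box, 12.4%) were in none of the 6 member windows. Letters of an NF-kB or STAT match can overlap those of an ETS match. These are matches of letters in closely related sequences and are not independent of each other.

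Total counts ran from 28756305 to 79836881 per library, and a gene without a count was below 3 counts, which is between 0.0373 and 0.103 CPM and covers counting error only. Of the 7 members, 6 passed the filter on low counts and BC117090 did not. None of the 6 would have passed that filter on its VAS+H2O counts alone. They passed only through the IMQ groups, so counts over the 6 are descriptive. Although the libraries were labelled dermis, they held epidermal transcripts. Krt14, a keratin of basal keratinocytes, lay between 724 and 3367 CPM, while Col1a1, a collagen of fibroblasts, lay between 1038 and 4982 CPM. Summed markers of hyperplastic epidermis and of baseline epidermis were highest in IMQ+XYF replicates 3 and 1, respectively, and lowest of that group in replicate 2. In bulk RNA, fewer cells of a type and less RNA per cell cannot be told apart.

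The 7 members were summed, since a split of reads among them leaves the sum unchanged. Reads that were left out, counted more than once or shared with other genes would change it. The summed level was 1.84, 1.20 and 0.201 CPM in the VAS+H2O libraries (mean 1.08 ± 0.827, SD, n = 3). In IMQ+H2O it was 15.7, 18.0 and 31.5 CPM (21.7 ± 8.55, SD, n = 3). In IMQ+XYF it was 60.1, 23.4 and 119 CPM (67.6 ± 48.4, SD, n = 3). Every IMQ-treated library thus lay above every VAS+H2O library. The IMQ+XYF libraries overlapped those of IMQ+H2O through replicate 2, and without replicate 3 their mean was 41.8 CPM.

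**Figure D2:**
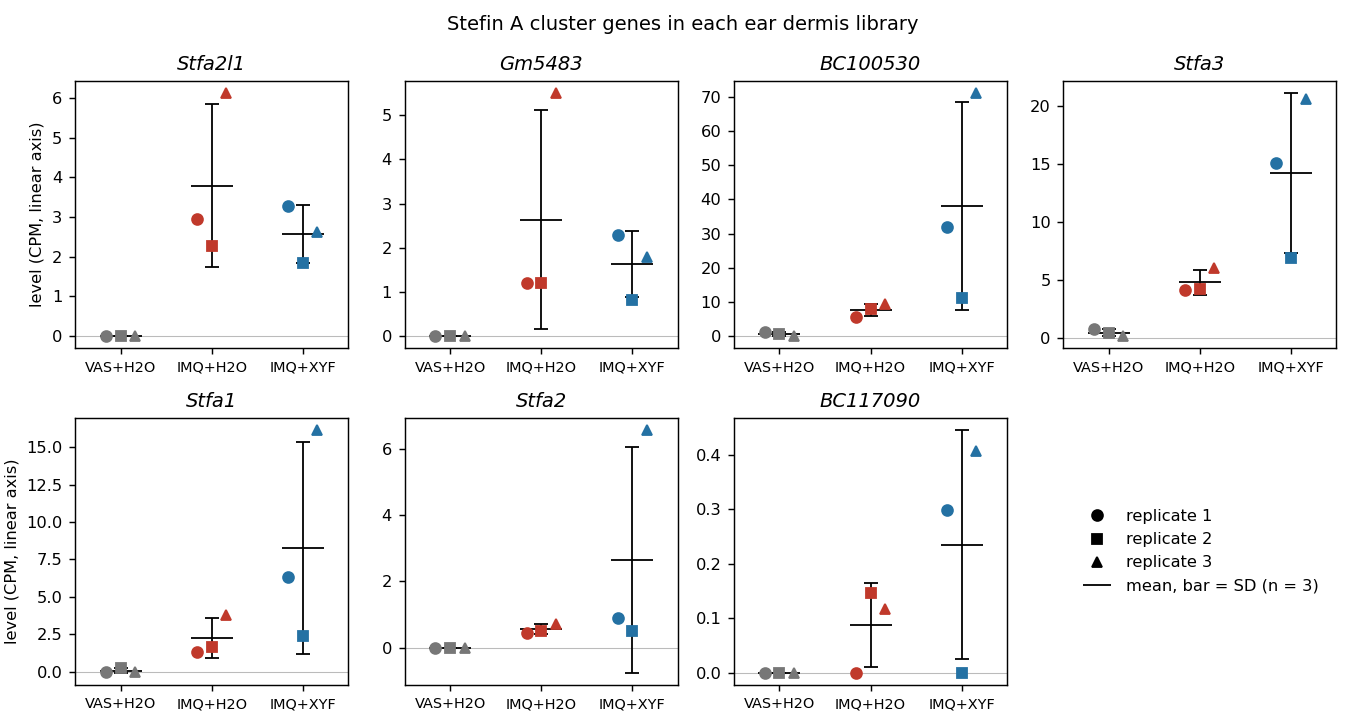
Level of each member in CPM (linear vertical axis, its own range in each panel) in the 9 libraries, by group, with the mean and SD (n = 3) in black and the symbol giving the replicate number. Stfa2l1 and Gm5483 are at 0 in all 3 VAS+H2O libraries and overlap between the IMQ groups, while BC100530 and Stfa3 are highest in IMQ+XYF replicates 1 and 3.

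Stfa2l1 had no count in any VAS+H2O library. With IMQ+H2O its counts were 86, 94 and 314, which is 2.96, 2.28 and 6.12 CPM, and with IMQ+XYF they were 263, 90 and 161, or 3.27, 1.83 and 2.61 CPM. Replicate 3 of IMQ+H2O was the highest library, and the IMQ groups overlapped. Gm5483, whose coding sequence is 79.3% identical to that of Stfa2l1, was likewise without a count in VAS+H2O. It reached 1.21, 1.19 and 5.50 CPM in IMQ+H2O and 2.28, 0.814 and 1.79 CPM in IMQ+XYF. Again IMQ+H2O replicate 3 was the highest library and the IMQ groups overlapped.

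BC100530 was the most abundant member by counts in all IMQ-treated libraries. It lay at 1.09, 0.528 and 0.0402 CPM in VAS+H2O, at 5.58, 8.01 and 9.26 CPM in IMQ+H2O, and at 32.0, 11.0 and 71.1 CPM in IMQ+XYF. The 3 groups did not overlap, and IMQ+XYF varied most, with replicate 2 close to the IMQ+H2O range. Stfa3, the member whose exons shared no 50-base word with another gene, followed the same order. It lay at 0.752, 0.417 and 0.161 CPM in VAS+H2O, at 4.13, 4.17 and 6.01 CPM in IMQ+H2O, and at 15.04, 6.89 and 20.6 CPM in IMQ+XYF, again with no overlap between groups.

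Stfa1 had 9 counts in VAS+H2O replicate 2 and none in the other two VAS+H2O libraries. It lay at 1.34, 1.67 and 3.76 CPM in IMQ+H2O and at 6.30, 2.38 and 16.2 CPM in IMQ+XYF, where replicate 2 fell inside the IMQ+H2O range. Stfa2, the near copy of Stfa2l1, had no count in VAS+H2O. Its IMQ+H2O libraries were at 0.448, 0.509 and 0.722 CPM, and those of IMQ+XYF at 0.883, 0.488 and 6.59 CPM, so its IMQ+XYF mean rested on replicate 3. BC117090 had the lowest counts of the members in every IMQ-treated library. Its counts were 0, 6 and 6 in the IMQ+H2O libraries and 24, 0 and 25 in those of IMQ+XYF, with none in VAS+H2O, and 33.7% of its 50-base words were shared with BC100530 or Stfa1.

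Per kilobase of annotated exon, the order of mean levels in IMQ+H2O was Stfa3 at 11.6 ± 2.60 CPM per kb (SD, n = 3), BC100530 at 9.64 ± 2.37, Stfa2l1 at 9.04 ± 4.90, Stfa1 at 3.18 ± 1.85, Gm5483 at 1.41 ± 1.33, Stfa2 at 1.19 ± 0.305 and BC117090 at 0.226 ± 0.199. The ranges of the first 3 overlapped, Stfa1 lay below all of them, and BC117090 lay below the others. In IMQ+XYF the order on the same scale was BC100530 at 48.2 ± 38.6, Stfa3 at 34.4 ± 16.8, Stfa1 at 11.7 ± 10.0, Stfa2l1 at 6.14 ± 1.72, Stfa2 at 5.64 ± 7.25, Gm5483 at 0.873 ± 0.400 and BC117090 at 0.607 ± 0.544. Here every neighbour in the order overlapped the next. Exon lengths came from the annotation and run from 387 bases in BC117090 to 1862 in Gm5483.

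The make-up of the stefin A counts was set against this sum. Stfa2l1 held 18.9%, 12.7% and 19.4% of the member counts in IMQ+H2O, and 5.45%, 7.81% and 2.19% in IMQ+XYF, so that its share was lower in each IMQ+XYF library than in any of IMQ+H2O. Gm5483 likewise held 7.69%, 6.61% and 17.5% against 3.79%, 3.47% and 1.50%. BC100530 held 35.6%, 44.5% and 29.4% against 53.3%, 47.0% and 59.6%. Shares within 1 total move together, and they were not tested.

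**Figure D3:**
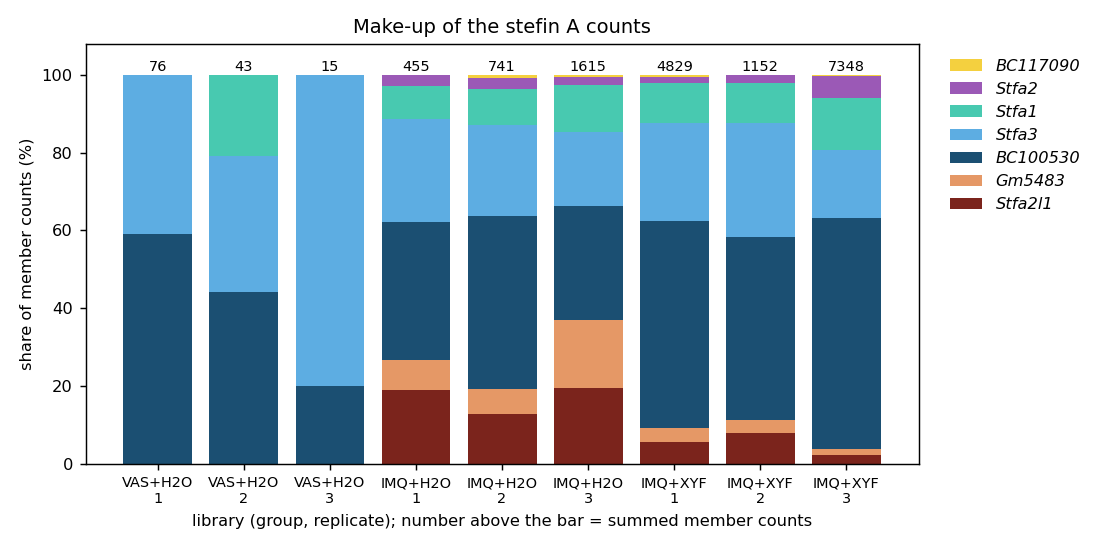
Share of the summed member counts (%) that each member took in each of the 9 libraries, with the summed counts above each bar. Stfa2l1 and Gm5483 are absent from the VAS+H2O bars, which rest on 15 to 76 counts, and take a smaller share in the IMQ+XYF libraries than in those of IMQ+H2O.

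The model and its control, IMQ+H2O and VAS+H2O, gave the values that chose the cluster, and they are described only. All 6 members that passed the filter were higher in every IMQ+H2O library than in any VAS+H2O library, with a log2 fold change of 1 or higher. Of all 22430 genes tested, 4.99% met the same description. Stfa2l1 was at least 45.4-fold higher, Gm5483 at least 31.6-fold and Stfa2 at least 6.71-fold, against the highest floor of 3 counts among the VAS+H2O libraries. The fitted log2 fold change was 3.88 for BC100530, 5.06 for Stfa1 and 3.48 for Stfa3. With genes at their bound, the median over the 6 was 4.43 on the log2 scale, beside -0.02 over all genes. The Stfa1 value rested on the 9 counts of VAS+H2O replicate 2 and was 9.93 without it, and it was 4.22 without VAS+H2O replicate 3. That of BC100530 was 5.01 without VAS+H2O replicate 1 and 3.22 without replicate 3, and that of Stfa3 was 4.14 without replicate 1. The bound of Gm5483 rested on IMQ+H2O replicate 3, without which its log2 was 3.84 in place of 4.98. Without that library the log2 bound of Stfa2l1 was 4.97 in place of 5.51.

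IMQ+XYF against IMQ+H2O asked whether the decoction changed expression in the IMQ-treated ear, where the choice of the cluster had used the IMQ+H2O libraries but not those of IMQ+XYF. Since Stfa2l1 was picked as high in IMQ+H2O, its lower value in the other group is not independent of that choice. None of the 6 members tested was called by edgeR's quasi-likelihood test, where a call needed a Benjamini-Hochberg adjusted p of 0.05 or lower and an absolute log2 fold change of 1 or higher. Over all genes 0.00892% were called in either direction. An unadjusted p under 0.05 was found for 2 of the 6, beside 11.7% of all genes. DESeq2 also called 0 members, where of 35996 genes it called 149 higher and 74 lower. It put 3 members at an unadjusted p under 0.05, beside 3296 of all genes, and Stfa3 had a DESeq2 adjusted p of 0.0671. The members took different signs. The log2 fold change was 2.32 ± 0.82 (SE) for BC100530, with an edgeR adjusted p of 0.379, and 1.57 ± 0.50 for Stfa3, with an edgeR adjusted p of 0.364. For Stfa2 it was 2.23 ± 0.98 and for Stfa1 1.86 ± 0.91, with edgeR adjusted p of 0.436 and 0.455. Stfa2l1 stood at -0.56 ± 0.43 and Gm5483 at -0.70 ± 0.70, with edgeR adjusted p of 0.620 and 0.711. The median over the 6 was 1.72, beside 0.01 over all genes tested.

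Only BC100530 and Stfa3 had IMQ+XYF libraries that were all higher than those of IMQ+H2O, where 9.22% of all genes did. Without IMQ+XYF replicate 3 the log2 fold change was 1.50 for BC100530, 1.20 for Stfa3, 0.94 for Stfa1 and 0.29 for Stfa2. For Stfa2l1 and Gm5483 the negative sign rested on IMQ+H2O replicate 3, and without it their log2 fold changes were 0.000727 and 0.47. With SE of this size, neither a change nor its absence was shown for any member.

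**Figure D4:**
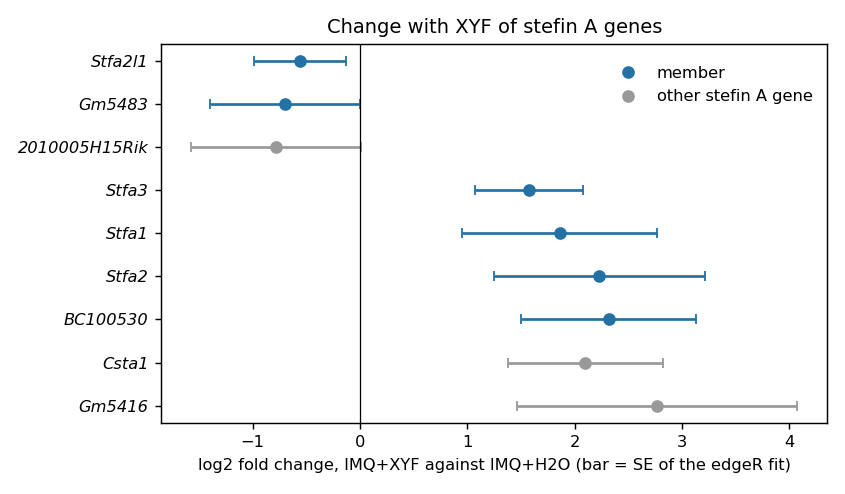
Log2 fold change of IMQ+XYF against IMQ+H2O (horizontal axis, bar = SE of the edgeR fit, 3 libraries a group) for the 6 members tested and 3 other stefin A genes of the cluster. Stfa2l1, Gm5483 and 2010005H15Rik lie below 0 and the other genes above 0, and no gene shown passed the test.

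IMQ+XYF against VAS+H2O shares the VAS+H2O libraries with the comparison that chose the cluster and the IMQ+XYF libraries with the comparison above. It called 5 of the 6 members higher, all but Stfa2, beside 0.695% of all genes called higher. That count is not independent of the choice. It includes Stfa2l1 and Gm5483, which had no count in VAS+H2O, and is a description. With the replicate number as a block the count was 2, and with only these groups in the fit it was 1. Over all genes 156 were called higher in the main fit, 36 with the block and 24 with these groups only. The fitted log2 fold change was 5.05 ± 0.61 (SE) for Stfa3, 6.20 ± 1.01 for BC100530 and 6.92 ± 1.27 for Stfa1. The values moved with single libraries. For Stfa3 it was 5.71 without VAS+H2O replicate 1, and for BC100530 it was 7.33 without that library, 5.54 without VAS+H2O replicate 3 and 5.36 without IMQ+XYF replicate 3. For Stfa1 it was 11.8 without VAS+H2O replicate 2, which held its only VAS+H2O counts, 6.09 without VAS+H2O replicate 3 and 5.97 without IMQ+XYF replicate 3. No p is given for any of the 6, since the choice used the VAS+H2O libraries and the members passed the filter only through the IMQ groups. Stfa2l1, Gm5483 and Stfa2 had no counts in VAS+H2O. Their IMQ+XYF means were at least 30.9-fold, 19.5-fold and 31.8-fold above the VAS+H2O floor. All 6 were higher in every IMQ+XYF library than in any VAS+H2O library, as were 11.7% of all genes. With bounds the median over the 6 was 5.02 on the log2 scale, beside -0.02 over all genes. The number called higher over all genes ran from 11 without VAS+H2O replicate 2 to 412 without IMQ+XYF replicate 2. The number of members called also depended on single libraries. It was 0 without VAS+H2O replicate 2 or without IMQ+XYF replicate 1, 2 without VAS+H2O replicate 1 or 3, IMQ+H2O replicate 1 or 2, or IMQ+XYF replicate 3, 3 without IMQ+H2O replicate 3, and 6 without IMQ+XYF replicate 2.

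The members' patterns over the 9 libraries were compared as the root mean square (RMS) difference of log2 CPM centred on each gene's mean. Stfa2l1 and Gm5483 were the closest members at 0.48, although they shared no 50-base word. The pairs BC100530 with Stfa3 and Stfa2 with Stfa3 followed at 0.79. Stfa2l1 and BC100530 were farthest apart at 1.56. Stfa2, the near copy of Stfa2l1, was 1.40 from it.

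Among tested genes outside the family, those nearest to Stfa2l1 were Fpr1 (RMS 0.58), a receptor for formylated peptides on neutrophils, Mrgpra2b (0.62), a Mas-related receptor, Il19 (0.70), a cytokine of the IL-10 family, S100a8 (0.83), a subunit of calprotectin, and Cxcl3 (0.83), a chemokine that attracts neutrophils. Nearest to the summed members were Sprr2d (0.68), Sprr2h (0.81), Sprr1b (0.91) and Sprr2g (0.91), small proline-rich proteins of the cornified envelope, and Epgn (0.80), a growth factor that binds the epidermal growth factor receptor. The nearest genes of the other members were looked up after these values were seen. They were Mrgpra2b for Gm5483 (0.36), Sprr2d for Stfa3 (0.38) and Stfa2 (0.66), Sprr2h for BC100530 (0.76) and Sprr2e for Stfa1 (0.75). For Stfa1 the third nearest gene was S100a8 (0.89). All these differences are descriptions over 9 libraries that share the large step between VAS+H2O and the IMQ groups.

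**Figure D5:**
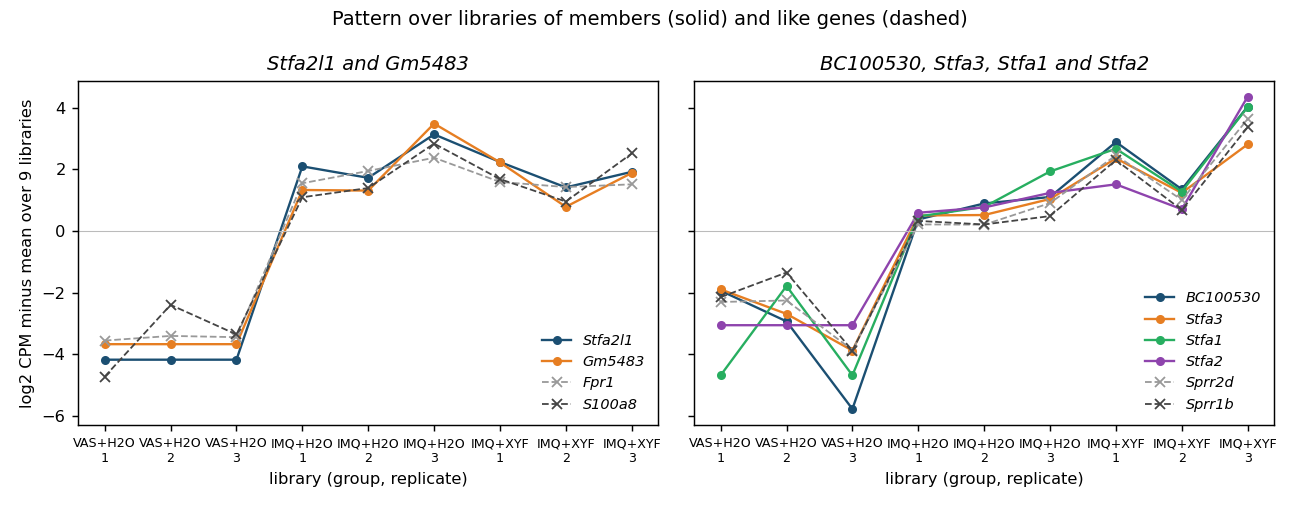
Log2 CPM of members (solid) and of like genes (dashed), each minus its mean over the 9 libraries, by library. On the left Stfa2l1 and Gm5483 with Fpr1 and S100a8 are about level between the IMQ groups, and on the right BC100530, Stfa3, Stfa1 and Stfa2 with Sprr2d and Sprr1b are highest in IMQ+XYF replicate 3.

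Marker lists moved with the members in several libraries. The 24 neutrophil markers in the table summed to 270, 342 and 240 CPM in VAS+H2O, to 560, 774 and 1222 CPM in IMQ+H2O, and to 826, 406 and 926 CPM in IMQ+XYF. The highest IMQ+H2O library, replicate 3, and the lowest IMQ+XYF library, replicate 2, were the same as for all 6 members tested. The highest IMQ+XYF library was replicate 3, as for BC100530, Stfa3, Stfa1 and Stfa2, whereas Stfa2l1 and Gm5483 were highest in replicate 1. A large part of the sum came from Il1r2, Asprv1 and Hdc, singled out after their values were seen, which together made 254, 297 and 210 CPM in VAS+H2O. The other 21 markers summed to 15.99, 44.9 and 30.1 CPM in VAS+H2O, to 288, 368 and 809 CPM in IMQ+H2O, and to 423, 270 and 577 CPM in IMQ+XYF. Asprv1 and Camp stood at log2 fold changes of -0.95 and -1.01 in IMQ+H2O against VAS+H2O and were not called. Of the 20 that were tested, 10 were called higher in IMQ+H2O than in VAS+H2O, beside 0.646% of all genes. In IMQ+XYF against IMQ+H2O 0 were called by edgeR, with 2 at an unadjusted p under 0.05, where 11.7% of all genes stood. Csf3r, the receptor for granulocyte colony-stimulating factor, lay at 2.43, 4.22 and 3.54 CPM, then 21.7, 33.4 and 62.7 CPM, and then 25.2, 14.6 and 36.9 CPM in the 3 groups in that order. Cxcr2, a chemokine receptor of neutrophils, ran from 0.375 to 2.72, from 7.20 to 20.3 and from 7.22 to 23.4 CPM. S100a8 ran from 1.16 to 6.00, from 68.0 to 227 and from 61.7 to 182 CPM, and S100a9 from 1.41 to 7.89, from 96.6 to 301 and from 80.6 to 228 CPM. Ly6g, a surface protein of neutrophils, was without a count in VAS+H2O, while 3, 4 and 32 counts were found in the IMQ+H2O libraries and 14, 0 and 29 in those of IMQ+XYF.

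Hyperplastic epidermis markers, 14 in the table, summed to 299, 472 and 450 CPM in VAS+H2O, to 584, 933 and 668 CPM in IMQ+H2O, and to 1830, 712 and 3503 CPM in IMQ+XYF. IMQ+XYF replicates 3, 1 and 2 came in the same order as for BC100530, Stfa3, Stfa1 and Stfa2. In IMQ+H2O the sum was highest in replicate 2, whereas those 4 members were highest in replicate 3. None of the 11 tested was called in IMQ+XYF against IMQ+H2O by edgeR, with 10 at an unadjusted p under 0.05 (11.7% of all genes), and 6 were called higher in IMQ+XYF than in VAS+H2O (0.695% of all genes). Krt16, a keratin of activated keratinocytes, lay at 84.7, 129 and 107 CPM in IMQ+H2O and at 464, 132 and 742 CPM in IMQ+XYF. Krt6a, its partner keratin, lay at 144, 249 and 182 CPM and then at 398, 175 and 1039 CPM, and Sprr1b at 22.0, 20.3 and 24.5 CPM and then at 86.7, 28.2 and 182 CPM. Baseline epidermis markers, 15 in all and led by Krt5, Krt14 and Krt10, summed to between 3131 and 4586 CPM in IMQ+H2O and to 19529, 5264 and 6831 CPM in IMQ+XYF. Here replicate 1 was the highest IMQ+XYF library, as for Stfa2l1 and Gm5483 and unlike for BC100530, Stfa3, Stfa1 and Stfa2. None of these 15 was called in any comparison by edgeR. In VAS+H2O they summed to between 5137 and 9106 CPM, above the IMQ+H2O range, unlike the members. Their median log2 fold change was -0.77 in IMQ+H2O against VAS+H2O. In IMQ+XYF against IMQ+H2O it was 1.38, with 11 of 15 at an unadjusted p under 0.05 (11.7% of all genes). There 6 of 15 were higher without overlap, as were 9.22% of all genes.

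Of monocyte and macrophage markers (Cd68, Csf1r and Adgre1 among 16), mast cell markers (Cpa3 and Mcpt4 among 10) and dermal fibroblast markers (Col1a1, Dcn and Pdgfra among 10), none was called in any comparison by edgeR. Their sums ran from 964 to 1842 CPM, from 259 to 787 CPM and from 11079 to 26388 CPM over all libraries. In IMQ+XYF against IMQ+H2O the mast cell markers had a median log2 fold change of -0.67. There 5 of 10 stood at an unadjusted edgeR p under 0.05 (11.7% of all genes) and 4 were lower without overlap (8.74% of all genes). Of the monocyte and macrophage markers, 4 of 16 stood at such a p and 6 were lower without overlap, with a median of -0.57. None of the fibroblast markers stood at such a p there. In IMQ+H2O against VAS+H2O, 9 of the 16 monocyte and macrophage markers stood at an unadjusted p under 0.05 (20.9% of all genes), with a median of 0.61. For mast cell and fibroblast markers it was 1 of 10 and 3 of 10, with medians of 0.15 and -0.35. The part that the amount of neutrophil or epidermal RNA has in the members' levels was not tested.

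The other stefin A genes of the cluster were set beside the members. Csta1 was the only one with clear counts in VAS+H2O, at 5.89, 4.89 and 1.09 CPM. It lay at 2.82, 1.97 and 3.02 CPM in IMQ+H2O and at 16.8, 2.85 and 13.8 CPM in IMQ+XYF. Gm5416 had no count in VAS+H2O and stood at 0, 0.170 and 0.429 CPM and then at 0.348, 0.325 and 3.73 CPM. The near copy of Gm5483, 2010005H15Rik, also had none in VAS+H2O, with 0.276, 0.146 and 0.780 CPM in IMQ+H2O and 0.398, 0.102 and 0.195 CPM in IMQ+XYF. Its highest library was IMQ+H2O replicate 3, as for Gm5483. The row named Gm4758, annotated as a pseudogene, was at 0 in every library. Listed with these genes, 8030411F24Rik and 9230104L09Rik lay outside the cluster, on chromosome 2, and stayed at or below 0.195 CPM.

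Of 6 genes found on the list of other stefin A genes, which included the pseudogene and those on chromosome 2, 3 were tested. None of them was called by edgeR in any comparison, and of 7 other cystatins and 11 cysteine cathepsins tested none was called either. In either direction 0.994% of all genes were called in IMQ+H2O against VAS+H2O and 1.2% in IMQ+XYF against VAS+H2O. Of the 21 genes tested in these 3 lists, 8 stood at an unadjusted p under 0.05 for the model against its control, beside 20.9% of all genes. The number was 2 for the change with XYF, beside 11.7%, and 5 for the XYF-treated group against the control, beside 18.3%. DESeq2 called Gm5416 and 2010005H15Rik in the first comparison, none in the second, and Gm5416 in the third. Of 35996 genes it called 531 higher and 414 lower in the first and 388 higher and 313 lower in the third. The most abundant of these genes were Cst3, a secreted cystatin, Ctsb, a lysosomal protease, and Ctsk, a collagen-degrading protease. Cst3 lay at 963 ± 217, 613 ± 99.5 and 808 ± 95.4 CPM (SD, n = 3) in VAS+H2O, IMQ+H2O and IMQ+XYF. Ctsb lay at 606 ± 56.9, 658 ± 95.8 and 663 ± 70.5 CPM (SD, n = 3), and Ctsk at 336 ± 44.7, 310 ± 74.99 and 304 ± 111 CPM (SD, n = 3). The median log2 fold change of the cathepsins lay at 0.12, -0.03 and -0.12 in the order model against control, XYF against model and XYF against control, and that of the other cystatins at -0.15, 0.13 and 0.05.

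The genes next to the cluster on chromosome 16 were not called in IMQ+XYF against IMQ+H2O. On one side lay Ccdc58, between 9.14 and 14.3 CPM over all libraries, and Fam162a, between 18.7 and 37.9 CPM. On the other side lay Casr, the calcium-sensing receptor, between 0.773 and 1.55 CPM, and Cd86, a co-stimulatory protein of antigen-presenting cells, between 5.49 and 14.9 CPM. Each of these 4 neighbours had counts in all VAS+H2O libraries, unlike Stfa2l1, Gm5483, Stfa2 and BC117090.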

How the data were processed

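RNA sequencing counts from 9 mouse ear dermis libraries were used. Per the labels, libraries were strand-specific TruSeq. The study's methods name a TruSeq RNA kit and do not state that strand was kept. The authors aligned reads with STAR (2.5 in the submitters' processing notes) to GRCm38 and deposited whole-number counts per Ensembl gene with no normalization. The counting tool, its use of strand and its treatment of reads with several alignments are not given in the sources used here. The deposited counts totalled 28756305 to 79836881 per library.

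All 9 libraries entered 1 edgeR 4.0.16 quasi-likelihood fit in R 4.3.3 (TMM scaling, filterByExpr, 22430 genes tested, a coefficient per group), with Benjamini-Hochberg adjustment over all tested genes. SE was obtained as |log2 fold change|/√F. CPM values are TMM-scaled. Lower bounds divide the group mean by the highest floor, at 3 counts, of the VAS+H2O libraries. Log2 CPM for likeness used a prior count of 2. DESeq2 1.42.0, RLE scaling, no filter, a replicate block, 2-group fits and leaving out each library were alternatives. The scripts were tested on simulated data. Replicates differed by more than counting error.

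Named genes were the members, the other stefin A genes, the 3 most abundant and any called cystatins or cathepsins, defining markers, the 5 genes nearest to the sum and to Stfa2l1, and 2 neighbours a side. Members and lists were chosen with earlier results of these data known. Coding sequences and exon words (50 and 100 bases) came from GENCODE vM21, aligned with Biopython 1.88, and promoters from RefSeq.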

Additional observations from a re-analysis of the deposited data

How the results depend on the processing

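In IMQ+XYF against IMQ+H2O 0 members were called under every alternative run, where hardly any gene was called by edgeR. Over all genes it called 0 with the replicate block, and 1 higher and 0 lower with only the 2 groups. With single libraries left out it called at most 2 higher and 2 lower. DESeq2 called 149 higher and 74 lower of 35996 genes. The sign turned only without IMQ+H2O replicate 3, for Stfa2l1 (log2 fold change 0.000727) and Gm5483 (0.47). With single libraries left out, the log2 fold change ran from -0.82 to 0.000727 for Stfa2l1 and from -1.05 to 0.47 for Gm5483. In IMQ+XYF against VAS+H2O the 5 calls became 2 with the replicate block and 1 with only the 2 groups in the fit. They ran from 0 to 6 when single libraries were left out. Over all genes 156 were called higher in the main fit, 36 with the block and 24 with the 2 groups. With single libraries left out that number ran from 11 to 412. All fold changes of the members kept their direction in that comparison, which adds no support. Stfa2l1, Gm5483 and Stfa2 had no counts in VAS+H2O, and for the other members tested the 2 groups did not overlap. DESeq2 called 2 genes of the other stefin A, cystatin and cathepsin lists in IMQ+H2O against VAS+H2O and 1 in IMQ+XYF against VAS+H2O. Over all genes it called 531 and 388 higher in these comparisons, where edgeR called 145 and 156. The cause of this difference was not tested. Mean summed member levels moved by less than 1 SD under RLE factors and raw totals. With single libraries left out, the mean ran from 0.698 to 1.52 CPM in VAS+H2O and from 16.8 to 24.7 CPM in IMQ+H2O. In IMQ+XYF it ran from 41.8 to 89.7 CPM. Same-numbered libraries correlated in their deviations at r between -0.183 and 0.125, and 1 of 9 libraries correlated best with its own number. No pairing by number was seen, which does not exclude one.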
